A study of Mus musculus with 18 samples.

Results

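The open chromatin of resting young lung endothelium was described from the 5 lungs of 2-month-old sham mice, with no comparison between groups. Peaks of chromosomes 1 to 19, X and Y that overlapped by at least 1 bp were merged over the 5 peak lists, which gave 44421 regions. Of these, 26226 regions had a peak in all 5 lists and form the set described here. In the whole series of 18 lists, 47338 regions had a peak in at least 2 lists and 17432 in every list. Regions were ordered by strength, the mean over the 5 lists of the percentile that the fold enrichment of a peak's summit held within its own list, so that 100 marks the strongest peak of every list.

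The series profiled sorted lung endothelial cells (ECs) of young and aged mice after bleomycin or sham treatment by ATAC-seq, a method in which a transposase inserts sequencing adapters into accessible DNA. The 5 animals used here (Young Sham 1 to 5) were FVB mice with a Col1α1-GFP reporter, which labels collagen-producing fibroblasts. The study's methods give the mice as of mixed sex, whereas the lists of these animals all held peaks at Y-linked promoters and none at that of Xist, the RNA that silences an X chromosome in females. They were 2 months old, received PBS into the trachea, and gave up their lungs at day 30. ECs were sorted as CD31+ CD45- CD326- GFP-, that is, with the endothelial surface protein CD31 and without the pan-leukocyte, epithelial and fibroblast labels, and each peak list came from 1 mouse. This gate takes blood capillary, arterial, venous and lymphatic ECs together, and in such a bulk sample a weak region can mean that few cells have it open or that it is weakly open in many, which cannot be told apart.

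Accessible DNA marks promoters, where transcription starts, and distal elements such as enhancers, which are bound by the factors that give a cell its identity. In ECs those factors include ETS proteins, among them ERG and FLI1, which bind a GGAA core, together with SOX17 and SOX18, GATA2 and KLF2. ERG keeps the endothelial programme on and is used as a nuclear marker of ECs in the lung. CTCF marks insulators and loop anchors in all cell types, while NF-Y, which binds CCAAT, and SP1, which binds GGGCGG, are promoter factors that act in most cells.

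Sequences of 5 promoters are printed first because they contrast the strongest single-copy promoters, those of Ddx10, Hpf1, Ect2 and Gins4, with that of the endothelial gene Tie1. Each is the 120 bases upstream of the RefSeq transcription start site (TSS) of GRCm38.p6, the patch release of mm10, read 5′ to 3′ on the strand of the gene. The Ddx10 window is chr9:53248113-53248232 on the minus strand. That of Hpf1 is chr8:60890308-60890427 on the plus strand. Ect2 (chr3:27153879-27153998), Gins4 (chr8:23237669-23237788) and Tie1 (chr4:118489850-118489969) lie on the minus strand. Capitals mark core letters found on either strand. These are CCAAT for the factor NF-Y, the SP1 letters GGGCGG, an ETS form common at promoters spelled CCGGAAG and, for KLF factors, GGGTGTGG.
Ddx10 promoter: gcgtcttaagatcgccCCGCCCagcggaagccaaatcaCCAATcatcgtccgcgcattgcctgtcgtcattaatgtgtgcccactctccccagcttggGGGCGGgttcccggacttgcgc
Hpf1 promoter: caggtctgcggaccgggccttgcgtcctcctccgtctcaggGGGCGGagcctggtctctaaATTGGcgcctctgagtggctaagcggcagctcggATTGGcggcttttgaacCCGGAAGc
Ect2 promoter: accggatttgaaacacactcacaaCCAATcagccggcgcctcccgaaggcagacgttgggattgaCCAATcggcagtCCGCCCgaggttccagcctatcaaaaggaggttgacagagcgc
Gins4 promoter: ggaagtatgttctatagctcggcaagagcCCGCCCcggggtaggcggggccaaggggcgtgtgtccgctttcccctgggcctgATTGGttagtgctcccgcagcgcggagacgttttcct
Tie1 promoter: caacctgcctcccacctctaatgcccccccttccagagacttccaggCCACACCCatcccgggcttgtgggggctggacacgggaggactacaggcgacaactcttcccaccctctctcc

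CCAAT stood in all 4 of the strongest promoters shown and at more than 1 place in those of Hpf1 and Ect2. In the Tie1 window only the KLF letters were found. A match is a description of the letters and does not show that a factor was bound.

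Distal sequences are shown as the 200 bases around the summit of the region's highest-percentile peak in any of the lists, on the plus strand of GRCm38.p6. Of these, 6 lie nearest to genes that define endothelium: Cdh5 (chr8:104095731-104095930, in an intron of Gm29682), Kdr (chr5:75922794-75922993, intergenic), Erg (chr16:95403523-95403722, in an intron of Erg), Tek (chr4:94746549-94746748, in an intron of Tek), Sox17 (chr1:4571723-4571922, intergenic) and Klf2 (chr8:72295814-72296013, intergenic). They are shown because each holds CAGGAAG, the ETS form that ERG prefers. The other pair is among the strongest distal regions with 1 copy on the assembled chromosomes: Axin2 (chr11:109011800-109011999) and Pak3 (chrX:143482962-143483161), both intergenic. Capitals mark CAGGAAG and the letters of the promoters above on either strand, and in addition the AP-1 letters TGANTCA, the SOX letters AACAAT, for GATA factors AGATAA, and the TEAD letters GGAATG. Both ETS forms and the TEAD letters contain GGAA, but their matches did not overlap in the windows printed here.
Cdh5 distal: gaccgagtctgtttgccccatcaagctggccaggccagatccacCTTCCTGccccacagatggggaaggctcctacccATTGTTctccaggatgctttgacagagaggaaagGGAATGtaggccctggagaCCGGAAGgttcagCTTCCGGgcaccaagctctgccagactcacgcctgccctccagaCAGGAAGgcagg
Kdr distal: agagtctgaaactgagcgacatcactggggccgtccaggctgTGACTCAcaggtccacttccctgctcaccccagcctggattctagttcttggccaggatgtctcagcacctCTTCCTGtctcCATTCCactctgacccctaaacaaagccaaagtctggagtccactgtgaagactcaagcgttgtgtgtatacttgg
Erg distal: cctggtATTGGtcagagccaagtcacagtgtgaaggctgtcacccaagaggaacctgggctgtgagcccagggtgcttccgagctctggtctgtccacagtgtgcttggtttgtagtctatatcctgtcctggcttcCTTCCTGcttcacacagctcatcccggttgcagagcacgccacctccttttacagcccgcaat
Tek distal: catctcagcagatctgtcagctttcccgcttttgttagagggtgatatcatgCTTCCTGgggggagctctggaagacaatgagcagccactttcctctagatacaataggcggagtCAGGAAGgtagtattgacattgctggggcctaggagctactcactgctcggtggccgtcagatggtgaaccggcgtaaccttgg
Sox17 distal: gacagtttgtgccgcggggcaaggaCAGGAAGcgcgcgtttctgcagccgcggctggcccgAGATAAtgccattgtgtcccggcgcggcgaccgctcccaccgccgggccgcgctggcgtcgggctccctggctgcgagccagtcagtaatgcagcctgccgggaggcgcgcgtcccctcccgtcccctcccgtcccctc
Klf2 distal: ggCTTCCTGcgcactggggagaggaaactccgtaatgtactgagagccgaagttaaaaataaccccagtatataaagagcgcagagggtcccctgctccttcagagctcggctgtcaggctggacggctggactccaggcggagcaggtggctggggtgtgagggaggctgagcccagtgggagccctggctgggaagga
Axin2 distal: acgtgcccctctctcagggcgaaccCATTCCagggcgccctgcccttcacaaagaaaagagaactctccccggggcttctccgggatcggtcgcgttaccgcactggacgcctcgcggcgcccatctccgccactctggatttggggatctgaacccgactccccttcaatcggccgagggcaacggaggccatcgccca
Pak3 distal: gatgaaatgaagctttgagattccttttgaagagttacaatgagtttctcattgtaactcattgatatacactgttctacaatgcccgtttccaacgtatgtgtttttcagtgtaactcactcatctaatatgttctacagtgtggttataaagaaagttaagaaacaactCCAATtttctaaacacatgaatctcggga

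The Cdh5 window held CAGGAAG at 2 places and CCGGAAG at 2 more, and that of Tek held CAGGAAG at 2 places. Neither the Axin2 nor the Pak3 window held CAGGAAG. The windows near endothelial genes were chosen to hold these letters, so no contrast can be drawn between the sets. The strongest distal windows of Kdr and Erg, not printed here, did not hold CAGGAAG either.

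The 5 lists held 30073 to 38747 nuclear peaks with a median width of 332 to 402 bp and a median fold of 8.99 to 9.68. Read totals were not used here, and the depth behind a peak was judged from the fragments piled up at its summit, with a median of 30 to 35 per list, and from the genome-wide background of 1.26 to 1.78 fragments. Young Sham 1 had the lowest background and the highest fold at most strong regions. The fold is a ratio to the local background, so a list with a lower background can reach higher folds, and the part of the background in these values was not tested. All 5 lists carried the same sequencing lane code. Spearman's rank correlation of strength between pairs of lists, across the 26226 regions, was 0.913 to 0.939. It was 0.945 to 0.963 over promoters and 0.807 to 0.864 over distal regions. Regions are not independent replicates, and these values only describe how closely the 5 animals' lists resemble each other.

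Promoters held their place in every animal more often than distal regions did. Of the 44421 merged regions, 6414 had a peak in 1 list, 3846 in 2, 3578 in 3, 4357 in 4 and 26226 in all 5, or 59.0% of the total. Promoter regions, which overlap the stretch from 1000 bp before to 100 bp after a TSS, made up 42.3% of the regions open in all 5 (11089) but 7.73% of those open in 1 to 4 lists. Distal regions, more than 2 kb from any TSS, made up 53.8% (14122) and 86.1%. The remaining 1015 regions, 3.87%, lay between these limits. Regions in 1 to 4 lists were also narrower and weaker, with a median width of 271 bp and a median fold of 5.51. Regions missing from a single list, just outside the set, had a median width of 347 bp and a median fold of 6.27, and 8.86% of them were promoters.

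**Figure D1:**
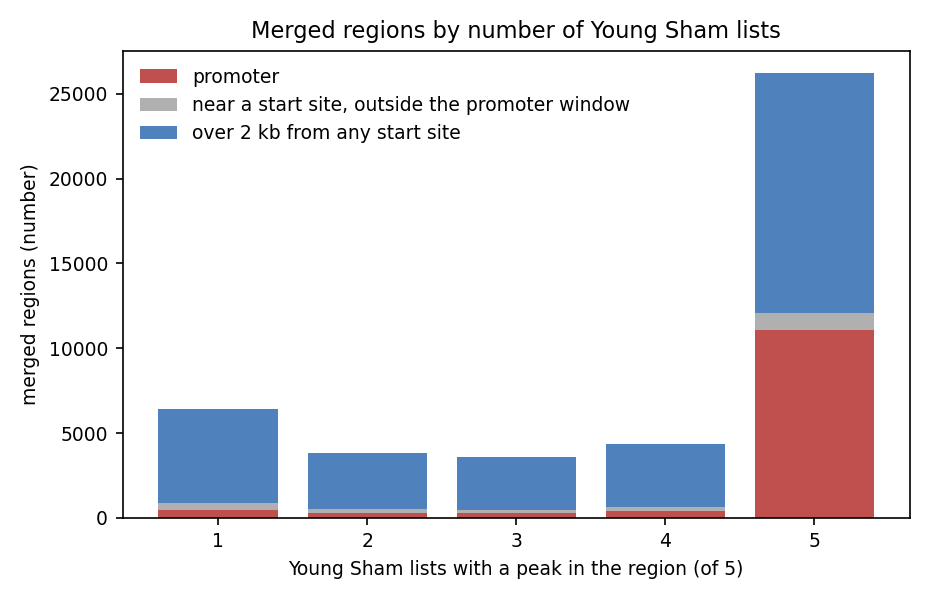
Number of merged regions (y axis) with a peak in 1, 2, 3, 4 or all 5 of the Young Sham lists (x axis), split into promoter, near and distal regions. The 26226 regions in all 5 lists hold most of the promoters, whereas regions in fewer lists are mainly distal.

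The promoters and distal regions open in all 5 animals differed in width, strength and base composition. Promoters had a median width of 686 bp, a median fold of 16.9, 110 fragments at the summit and a mean GC content of 66.2% in the 200-bp window. Distal regions had a median width of 461 bp, a median fold of 9.61, 30.7 fragments and a GC content of 51.7%. Their median distance to the nearest TSS was 26087 bp, with 47.1% between 10 and 50 kb away and 13.7% beyond 100 kb. Summits of distal regions were intergenic in 51.0% and intronic in 45.5%. The place of a region in the order varied among animals by a median of 8.68 percentile points for promoters and 20.7 for distal regions. Regions near the top of the order have less room to vary on this scale, with 1.08 points for the 500 strongest against 17.3 for the 500 in the middle.

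The labelled cell type was checked first on 4 endothelial markers, all of which had an open promoter and at least 1 distal region in all 5 animals. Cdh5 encodes VE-cadherin, the adhesion protein of endothelial junctions. Its promoter had folds of 9.95, 6.92, 8.25, 8.002 and 8.96 in Young Sham 1 to 5. Its mean percentile of 43.9 lies below the median of 61.5 over all regions and of 79.5 over promoters, at rank 18873 of 26226, and Young Sham 2 was the lowest. The rank is by fold over a mean local background of 9.74 fragments at this promoter. Its summit held 73 to 100 fragments, against a median of 48.4 over all regions, and its mean percentile of −log10 p was 68.8. Cdh5 had 4 regions in all, of which that 5.79 kb upstream had folds of 8.90, 7.94, 7.46, 8.91 and 7.16.

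Pecam1 encodes CD31, the surface protein used in the sort. Its promoter (chr11:106715043-106715576) had folds of 11.1, 10.03, 8.64, 9.12 and 8.68. A region 15.6 kb upstream (chr11:106730647-106731204) was stronger in every list, with 17.5, 14.6, 13.1, 14.9 and 12.1. The folds of the promoter and of this upstream region did not overlap, and Young Sham 1 was the highest at both.

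Erg itself had 6 regions. Its promoter window at the TSS (chr16:95458972-95459596) had folds of 8.75, 6.72, 6.75, 7.25 and 8.83, below all 5 values of an intronic region 86.2 kb downstream of that TSS (chr16:95372845-95373388), which were 14.3, 15.4, 12.5, 14.4 and 12.5. This order holds for the fold and not for the fragments at the summit. Those were 63, 60, 50, 65 and 47 at the promoter and 46, 63, 48, 59 and 38 at the intronic region. The mean local backgrounds were 6.70 and 2.73 fragments. Kdr, which encodes the VEGF receptor VEGFR2, had 10 regions, the most of the 4 markers. Its promoter (chr5:75977994-75978782) had folds of 15.8, 11.9, 11.1, 11.9 and 12.8. The strongest Kdr region (chr5:75933463-75934114), 44.6 kb downstream of the TSS in an untranslated exon of Kdr, had 17.6, 16.9, 18.7, 15.5 and 16.7. The lists thus overlapped slightly between both regions, since the promoter fold of Young Sham 1 exceeded the lowest value of the downstream region.

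Among all 21000 protein-coding genes of the annotation, 52.8% had a promoter open in all 5 animals. Of 16 pan-endothelial markers, 15 had one, the exception being Emcn. All 28 endothelial transcription factors had one, as did 14 of 15 junction and adhesion genes, 13 of 15 vasoactive and metabolic genes, 12 of 13 immediate early and stress factors and all 12 housekeeping genes. By vessel type, promoters were open for 8 of 10 general capillary, 6 of 10 aerocyte, 7 of 10 arterial, 5 of 9 venous and large vessel and 2 of 7 lymphatic markers. Aerocytes are the large capillary ECs of gas exchange. The lymphatic pair was Prox1, the master factor of lymphatic fate, and Flt4, which encodes VEGFR3, at percentiles of 46.9 and 49.8.

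Most markers of other lung cells lacked a promoter peak in at least 1 of the 5 lists, which is how a promoter not open in all 5 is meant here. No promoter of 8 leukocyte markers, including Ptprc (CD45), or of 4 mesothelial markers was open in all 5 animals. Of 8 epithelial markers, Foxj1 and Hopx were open, and Epcam (CD326), Sftpc and Cdh1 were not. Of 7 fibroblast markers only Pdgfra was open and Col1a1 was not, and of 7 mural markers only Myh11. The Foxj1 promoter, which belongs to the factor of motile cilia, had folds of 19.3, 17.6, 12.3, 18.3 and 16.2. The Myh11 promoter, of smooth muscle myosin, had 24.7, 21.5, 19.4, 18.8 and 18.8. Both had a higher fold in every list than the Cdh5 promoter, though the fold depends on the local background. Whether other cells contributed to these peaks was not tested.

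Open promoters of endothelial genes had, by the median, lower percentiles than those of all protein-coding genes. Open promoters of pan-endothelial markers had a median percentile of 58.6 and those of endothelial transcription factors 67.8, against 81.5 for all protein-coding genes with an open promoter and 75.5 for housekeeping genes. Tie1, which encodes an endothelial receptor of the angiopoietin pathway, led the markers with folds of 26.6, 25.3, 24.8, 23.01 and 23.7 (24.7 ± 1.38, SD, n = 5). Esam, an adhesion molecule of endothelial junctions, was the lowest at 7.24, 5.29, 5.31, 5.88 and 6.28. The ranges of these promoters lay far apart in all 5 lists.

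Among the transcription factors, Ets1 was the highest, with promoter folds of 24.5, 22.7, 20.8, 20.1 and 22.1. Sox17, a determinant of arterial identity, was the lowest, with 4.67, 4.32, 4.21, 4.73 and 4.05. Its region 74.5 kb upstream (chr1:4571497-4572230), printed above, had 24.9, 23.5, 25.8, 24.2 and 24.8. In each animal the fold of this distal region was thus more than 5 times that of the promoter. Even among housekeeping genes the spread was wide, from Pgk1 at percentile 96.4 to Actb at 23.8.

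**Figure D2:**
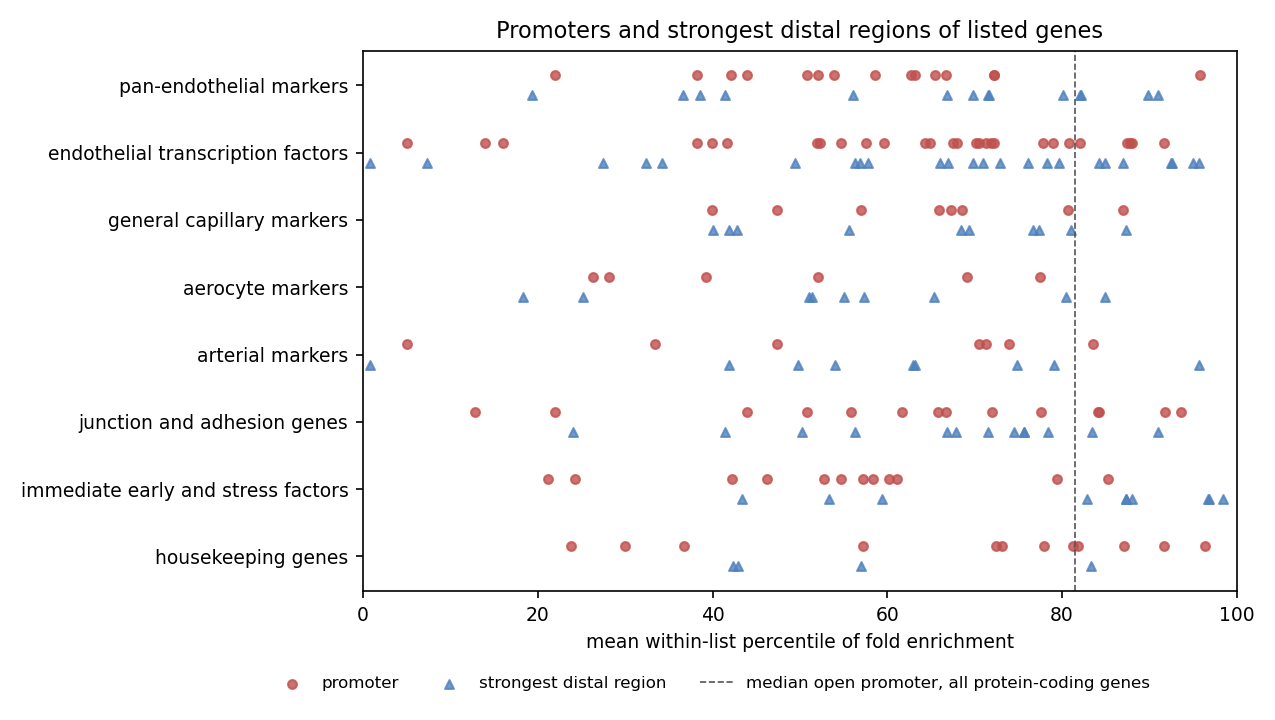
Mean percentile of fold enrichment over the 5 Young Sham lists (x axis) of open promoters (circles) and strongest distal regions (triangles) of the genes in 8 lists (y axis), with a dashed line at 81.5, the median open promoter of all protein-coding genes. Most endothelial promoters lie left of the line, and the Sox17 promoter stands lowest among the endothelial transcription factors at 5.05.

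At several endothelial genes the strongest region, by fold over the local background, was distal. Of the genes with both an open promoter and a distal region, this held for 8 of 13 pan-endothelial markers (61.5%), 12 of 24 endothelial transcription factors, 7 of 12 junction genes, 6 of 12 vasoactive and metabolic genes and 4 of 8 general capillary markers. It held for 2 of 6 aerocyte, 2 of 6 arterial, 1 of 4 venous and large vessel and 0 of 1 lymphatic markers. Among all protein-coding genes with both kinds it held for 1106 of 3823, or 28.9%. The share was 9 of 10 among immediate early and stress factors and 2 of 4 among housekeeping genes.

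Tek, which encodes the angiopoietin receptor TIE2, had promoter folds of 9.92, 10.1, 9.502, 8.65 and 12.3 and an intronic region 7.36 kb downstream (chr4:94746193-94746918) with 23.1, 21.7, 18.7, 22.04 and 20.1. The Tek values did not overlap. Cldn5, the claudin of endothelial tight junctions, had its strongest region 43.5 kb from the TSS, with 23.9, 20.2, 20.3, 24.1 and 20.6 against 13.7, 13.3, 12.7, 13.4 and 11.6 at the promoter. Klf2, the flow-induced factor, was strong at both, with 25.4, 23.9, 22.6, 24.1 and 24.1 at 23.1 kb upstream (chr8:72295451-72296227) and 21.2, 18.9, 20.1, 20.1 and 20.6 at the promoter.

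Aplnr, the apelin receptor of general capillary cells, had a region 6.70 kb upstream (chr2:85129318-85130016) with folds of 18.4, 17.2, 16.1, 19.1 and 16.4 and a promoter with 7.44, 8.86, 7.54, 8.56 and 6.82. Vwf, which encodes the clotting factor stored by large vessel ECs, had 22.5, 18.98, 13.98, 17.9 and 15.1 in an intron 20.5 kb downstream of its TSS. Its promoter had 11.04, 8.32, 5.40, 8.01 and 5.50, so that Young Sham 1 was the highest and Young Sham 3 the lowest at both places. Among immediate early genes, which respond within minutes to stimulation and to tissue handling, Fosb had a region 10.1 kb upstream (chr7:19319862-19320379) with 31.6, 27.9, 23.4, 28.0 and 27.4. A region 12.2 kb downstream of the Fos TSS (chr12:85485811-85486406) had 29.4, 25.8, 22.99, 25.6 and 24.6.

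The 15 strongest promoters had folds of 29.8 to 51.9, and their summits lay 4 to 101 bp from a TSS. The first was that of 2610005L07Rik (chr8:20424470-20425107), with 51.9, 42.0, 42.9, 43.4 and 46.3, but its sequence is present in 5 copies in the genome at 95% identity or more over at least 90% of the window. Those of Gm14410 (chr2:177206320-177206677) and Gm14326 stood in 34 and 26 copies, and that shared by 6430590A07Rik and Abhd18 in 2. The authors kept read pairs in which at least 1 end mapped to a unique place, and whether reads of the other copies contributed to the folds of these 4 promoters was not tested. Of the 100 strongest promoters, 5 had more than 1 copy, as did 4 of 222 when every 50th promoter was taken.

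Ddx10, an RNA helicase of ribosome production, had the strongest single-copy promoter (chr9:53247876-53248434), with folds of 37.3, 34.0, 31.5, 33.1 and 32.5. The promoter of Hpf1, the partner of PARP1 in DNA repair, followed (chr8:60890093-60890661) with 35.0, 32.8, 32.8, 35.5 and 33.1. Ect2, which acts in cell division, had 36.1, 31.3, 32.3, 32.8 and 33.2. These ranges overlap, and the order of these promoters differs between animals.

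Gins4, a subunit of the replicative helicase, had 35.9, 31.3, 31.3, 33.1 and 33.1. Hsd17b7 of sterol synthesis, Pik3c3, which encodes the lipid kinase VPS34, and Elac2, which cuts tRNA ends, came next at mean folds of 33.0, 33.1 and 33.3. The list of 15 closed with the shared promoter of Mmut and Cenpq, then Gatb of mitochondrial translation, Srfbp1 and Isoc2a, with mean folds of 32.6, 32.7, 32.3 and 32.4. None of the listed endothelial genes was among the 15. Young Sham 1 had the highest fold at 13 of the 15 and at 94 of the 100 strongest promoters. Ordering by the −log10 p of the peaks in place of the fold kept 19 of the 100 strongest promoters, so this choice largely sets which promoters lead.

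**Figure D3:**
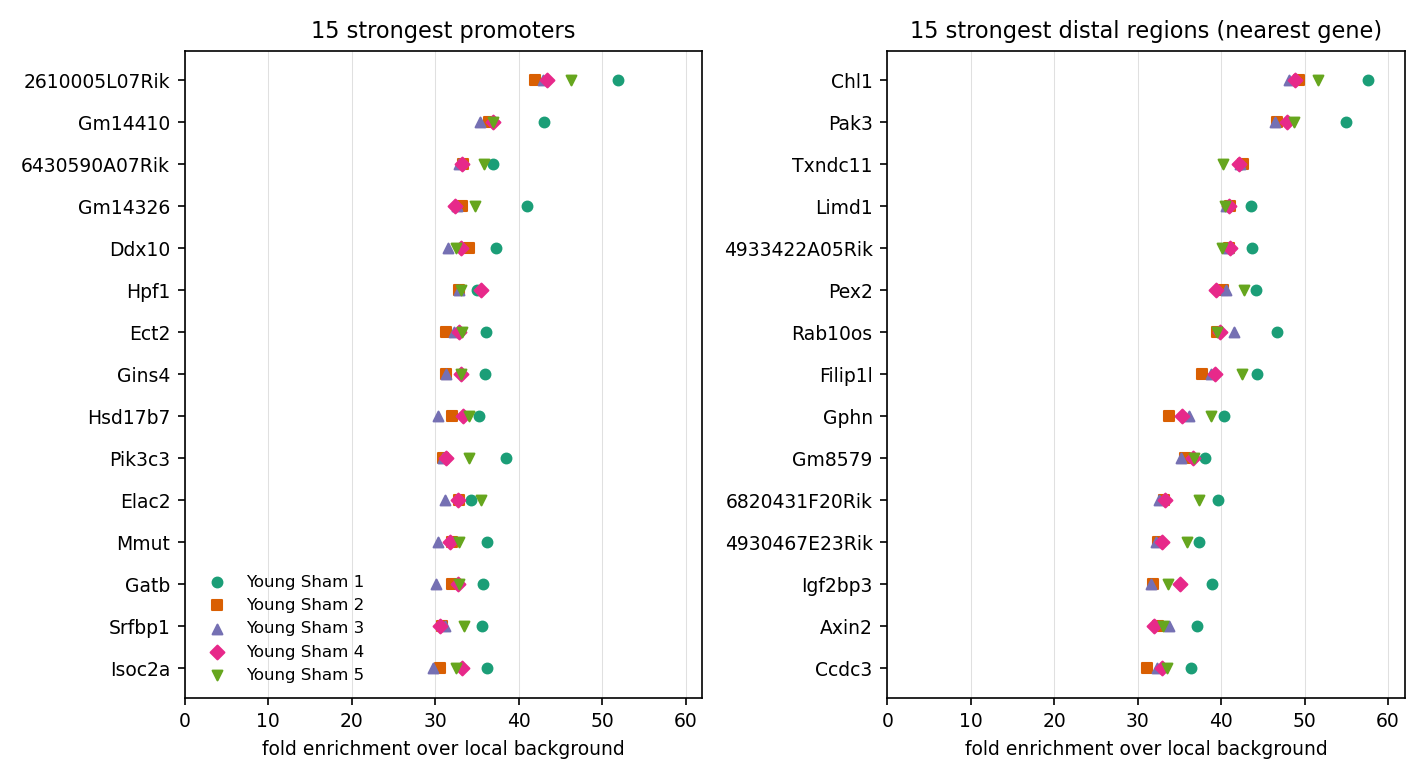
Fold enrichment at the peak summit (x axis, ratio to local background) of the 15 strongest promoters (left) and the 15 strongest distal regions by nearest gene (right), with 1 point for each of the 5 Young Sham lists. Young Sham 1 has the highest point at 13 of the 15 promoters and 14 of the 15 distal regions.

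Letters of promoter factors became more common as promoters became stronger. In the 200-bp summit window of promoters, CCAAT was present in 32.3% of all 11089, in 48.7% of the strongest of 5 equal groups by strength and in 19.6% of the weakest. GGGCGG fell from 74.7% to 55.4% and CCGGAAG from 25.3% to 9.07% over the same groups. Among the 15 strongest, 12 held CCAAT, 12 GGGCGG and 6 CCGGAAG, while CAGGAAG stood in 1. In the 120 bases upstream of the TSS, CCAAT stood in 22.3% of all 31603 start sites, 25.2% of the 14277 at open promoters and 47.3% of the 657 at the 500 strongest. The shares of GGGCGG in these sets were 33.0%, 53.8% and 58.8%. GC content differed little, at 66.1% in the strongest and 64.5% in the weakest group.

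Distal regions held some letters more often than promoters and others less often. CAGGAAG stood in 25.8% of distal windows and 9.76% of promoter windows, AACAAT in 15.7% and 2.62%, AGATAA in 12.8% and 2.16%, and TGANTCA in 9.85% and 2.53%. The converse held for CCGGAAG, with 3.86% of distal and 16.4% of promoter windows, and for GGGCGG, with 13.2% and 66.4%. CCAAT differed less, with 21.8% of distal and 32.3% of promoter windows. In the 500 strongest distal regions, GGGCGG stood in 29.6% and CCAAT in 28.2%, against 25.2% for CAGGAAG. From the weakest to the strongest of 5 equal distal groups, GGGCGG went from 11.6% to 20.4% and CCAAT from 20.1% to 26.0%. Across all 26226 windows of this length, CAGGAAG stood in 18.7%. Promoter windows are richer in GC, which by itself changes how often a set of letters occurs, and its part in these shares was not tested.

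CAGGAAG rose over distal regions from 22.3% in the weakest to 29.9% in the strongest of 5 equal groups, but not at the very top, where the 500 strongest held it in 25.2% and the 500 weakest in 23.4%. It stood in 21.9% of distal regions open in 1 to 4 lists. The CTCF motif ran the other way, from 11.2% in the weakest group to 4.46% in the strongest. In the distal peaks of each list taken alone, CAGGAAG stood in 23.7% to 24.6% (24.1% ± 0.327, SD, n = 5). Near pan-endothelial markers it stood in 21 of 60 distal regions (35.0%), near endothelial transcription factors in 32 of 107 (29.9%) and near all protein-coding genes in 26.1%. The other endothelial lists lay on either side, with 13 of 39 (33.3%) near general capillary, 10 of 33 (30.3%) near arterial and 3 of 6 near lymphatic markers, but 5 of 23 (21.7%) near aerocyte and 1 of 10 near venous markers. Near junction genes it was 12 of 38 (31.6%) and near vasoactive and metabolic genes 8 of 39 (20.5%). Near Kdr and Erg, the regions printed above had folds of 18.4, 15.2, 11.99, 15.8 and 13.1 and of 14.7, 8.75, 8.001, 11.9 and 8.04, with Young Sham 1 the highest at both.

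**Figure D4:**
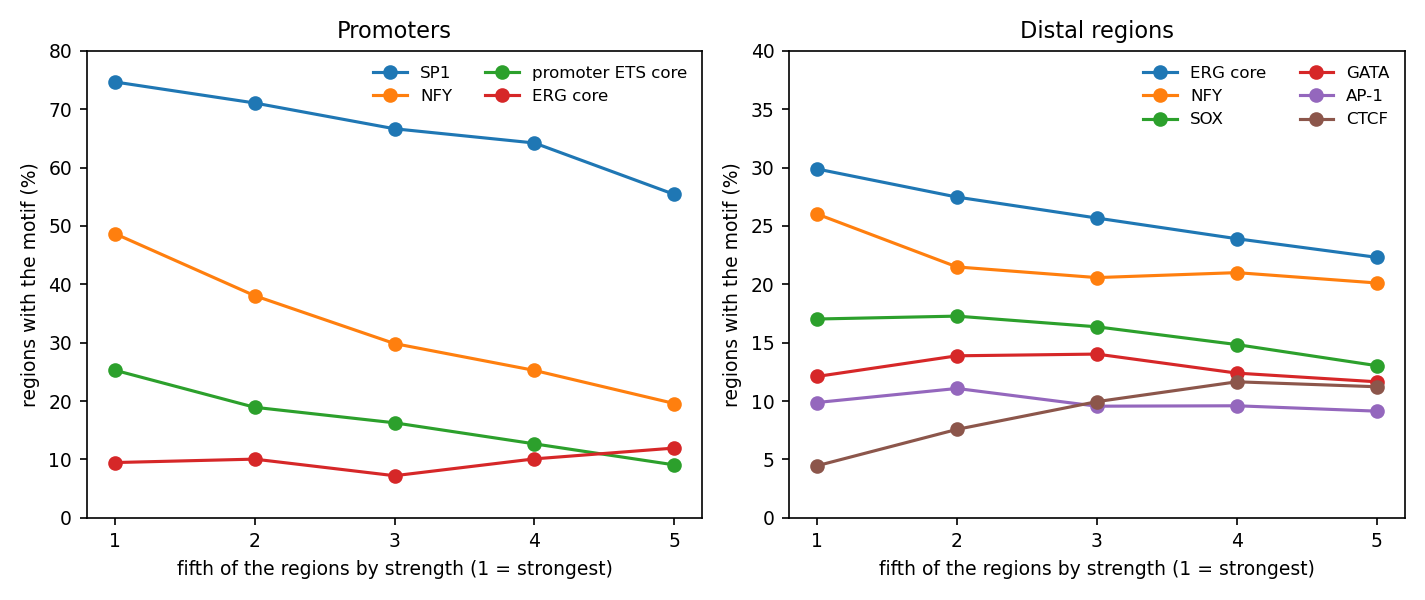
Share of regions (y axis, percent) whose 200-bp summit window holds each motif on either strand, for promoters (left) and distal regions (right) in 5 equal groups by strength (x axis, 1 the strongest), where NFY marks CCAAT and ERG core marks CAGGAAG, and CTCF is a longer motif with ambiguous letters given by name alone. NFY in promoters rises from 19.6% to 48.7% and the ERG core in distal regions from 22.3% to 29.9% toward the strongest group (though 25.2% in the 500 strongest), while CTCF in distal regions falls to 4.46%.

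The strongest distal regions were led by repeated sequence. The first, in an intron of the neural adhesion gene Chl1 (chr6:103649018-103649382), had folds of 57.6, 49.3, 48.2, 48.9 and 51.6 and 3 copies in the genome. Of the 15 strongest, 8 had more than 1 copy, against 13 of the 100 strongest and 8 of 283 when every 50th distal region was taken. The most repeated lay nearest to Rab10os (chr12:3109790-3110183), with 85 copies and folds of 46.7, 39.5, 41.5, 39.9 and 39.6. A region nearest to 4933422A05Rik was repeat-masked over 80.5% of its length. The regions nearest to 6820431F20Rik and 4930467E23Rik aligned to the 2610005L07Rik promoter region at 98.0% identity over 545 bp and 95.7% over 511 bp, so 3 of the leading regions share 1 sequence.

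Of the regions with 1 copy on the assembled chromosomes, the strongest lay 35.5 kb upstream of Pak3 (chrX:143482899-143483229). It had folds of 54.9, 46.7, 46.4, 47.8 and 48.8. Its window had a GC content of 34%, and 437 to 457 fragments stood at its summit. Copies missing from the assembly would not be counted, and whether repeated sequence contributed to this region was not tested. The next was a region in an untranslated or noncoding exon of Lars2, nearest to Limd1 (chr9:123461805-123462227), with 43.6, 41.1, 40.6, 41.0 and 40.4. The region nearest to Pex2 (chr3:5860387-5860874) lay 284 kb from its TSS and had 44.2, 40.2, 40.6, 39.4 and 42.7. In all 3, Young Sham 1 was the highest. Regions nearest to Gphn, Igf2bp3, Axin2 and Ccdc3 had mean folds of 36.9, 34.2, 33.6 and 33.3.

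The Axin2 region, near the feedback inhibitor of WNT signalling, lay 91.6 kb downstream of its TSS (chr11:109011589-109012159) and had 37.1, 32.5, 33.7, 31.9 and 33.0. The remaining 3 of the 15 were nearest to Txndc11 (in an intron of Zc3h7a), Filip1l and Gm8579, with mean folds of 41.9, 40.5 and 36.5, and each had more than 1 copy. CAGGAAG stood in none of the 15 strongest distal windows and in 12 of the 100 strongest, below its share of all distal windows. Ordering by −log10 p kept 45 of the 100 strongest distal regions.

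Wider regions tended to have higher folds, except among the widest. Spearman's rank correlation across the 26226 regions was 0.582 between width and fold percentile and 0.684 between width and the percentile of −log10 p, with no test since regions share libraries and depth. The median fold percentile rose with width to 81.3 in the 8th of 10 width groups and was 72.7 in the widest group. The median percentile of −log10 p did not fall, with 80.7 in the 8th and 83.9 in the widest group. The median local background was 5.22 and 8.30 fragments in these groups. The widest region of all (chr17:39843054-39846530, 3477 bp) covered a ribosomal RNA gene in GENCODE and lay nearest to Esp38 in RefSeq. Its folds were only 2.46, 2.50, 2.49, 2.41 and 2.71, at a percentile of 0.077, although 1303 to 1811 fragments stood at its summit, with a local background of 638 fragments. The second, at 4930526I15Rik (3003 bp), had folds of 4.91 to 5.45.

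Most wide regions were promoters, which made up 8 of the 10 widest, 85 of the 100 widest and 83.6% of the 500 widest. Agbl5, a tubulin-modifying enzyme, had a promoter region of 2024 bp that also held tRNA genes, with folds of 8.14, 8.19, 8.28, 7.34 and 7.51. Fbxl17, a ubiquitin ligase subunit, had one of 1940 bp with 15.2, 14.4, 13.7, 13.7 and 14.4. That between Naa50 and Atp6v1a spanned 1924 bp with 18.3, 15.3, 14.1, 14.9 and 16.0.

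Promoter regions of Rpl7 and Rdh10 (1860 bp), Midn (1838 bp), the RNA helicase Ddx3x (1829 bp) and the splicing factor U2af2 (1806 bp) had mean folds of 7.64, 7.26, 8.47 and 9.03, which are below the promoter median. The tenth of the widest was distal, 7.92 kb upstream of Mpzl1 (chr1:165641476-165643278, 1803 bp), over tRNA genes, with 15.3, 16.1, 16.1, 15.9 and 14.4. Its 5 values varied little.

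Genes were then ordered by the number of regions to which they were the nearest gene. Of 26180 genes, 14248 had at least 1 region, with a median of 1 among them, and 817 had 5 or more. Among protein-coding genes 3.31% had 5 or more. Counting regions inside the gene body in place of the nearest gene kept 14 of the 50 leading genes, so this choice largely sets which genes lead. The count grows with the space around a gene: the stretch nearest to the gene had a median of 0.402 Mb for the 50 leading genes and 0.0516 Mb for all genes with any region. Frmd4a, a scaffold protein of cell polarity, came first with 20 regions, of which 18 were distal and all 20 lay inside the gene. Its strongest (chr2:4227585-4228076), in an intron, had folds of 25.7, 19.5, 18.5, 21.03 and 16.0, with Young Sham 1 the highest.

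Tmcc3 followed with 16 regions, all inside the gene and the strongest (chr10:94426188-94426923) at 23.4, 21.5, 21.2, 22.4 and 22.9. Bach2, a transcription repressor best known from lymphocytes, had 15 regions, and none had its summit inside the gene. The strongest Bach2 region (chr4:32337511-32338069), 79.7 kb upstream, had 20.6, 15.8, 14.9, 16.2 and 16.4. Of the 15, 7 held CAGGAAG.

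Epas1, which encodes the hypoxia factor HIF-2α of endothelium, also had 15 regions over 287 kb. Of these, 7 lay inside Epas1 and 4 inside its neighbour Prkce. The strongest, 21.6 kb upstream (chr17:86732020-86732521), had 22.95, 17.3, 19.4, 19.6 and 19.9, and the Epas1 promoter had 18.8, 16.9, 17.7, 17.3 and 18.0. The 14 regions counted for the noncoding gene 2010106C02Rik all lay inside Prkce too, so this stretch of chromosome 17 entered the list under 2 names.

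Pakap had 15 regions, all inside the gene, and the transcription corepressor Bcor on the X chromosome had 15, of which 8 lay inside it. Arhgef3, a guanine nucleotide exchange factor, had 14, and 10 of them held CAGGAAG, the largest number among the 10 leading genes. The strongest Arhgef3 region (chr14:27299538-27300047) had 13.7, 14.1, 13.5, 13.7 and 9.73, with Young Sham 5 the lowest. The 15 regions of Mir101c differed from the others: they lay within 38.2 kb at the start of chromosome 9, were repeat-masked over a median of 97.5% of their length, and none exceeded a percentile of 47.3. The 14 regions counted for Gm10532 all lay inside Ctif.

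**Figure D5:**
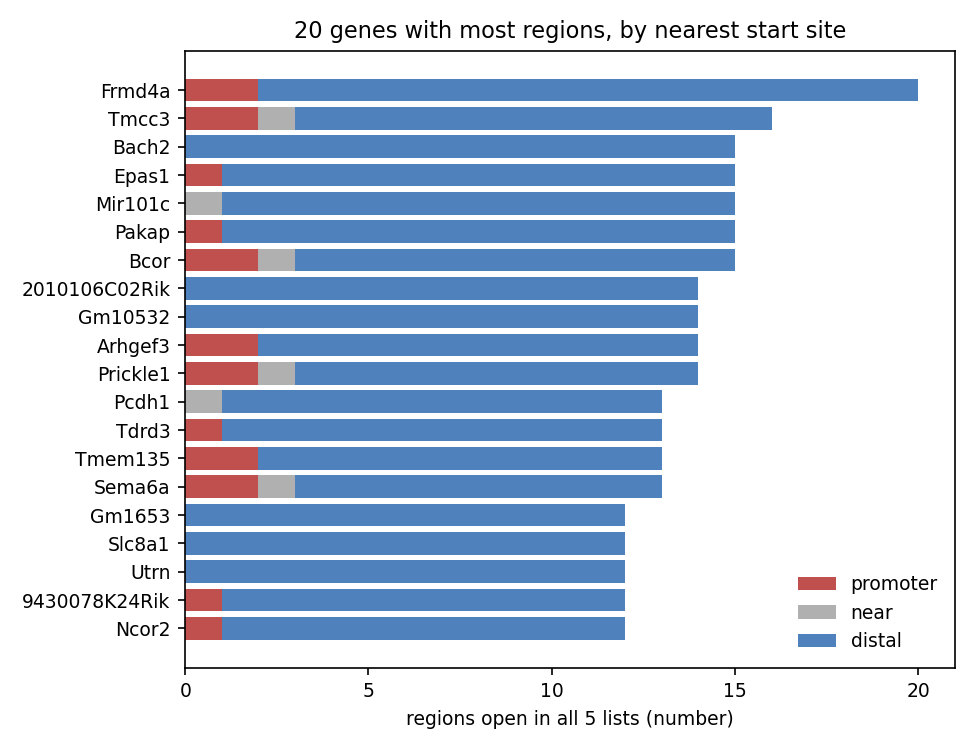
Number of regions open in all 5 Young Sham lists (x axis) for the 20 genes (y axis) that are nearest to the most regions, split into promoter, near and distal regions. Frmd4a leads with 20 regions, 18 of them distal, and the bars of all 20 genes are mainly distal.

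Several endothelial lists held many genes with 5 or more regions. The lists share some genes, for example Cdh5, Pecam1, Cldn5 and Esam between the pan-endothelial and junction lists, which count in each. At least 5 regions were found for 7 of 16 pan-endothelial markers, 13 of 28 endothelial transcription factors and 5 of 10 general capillary markers, against 3.31% of protein-coding genes. The count was 1 of 10 for aerocyte, 2 of 10 for arterial, 1 of 9 for venous and large vessel and 0 of 7 for lymphatic markers. It was 4 of 15 for junction genes, 4 of 15 for vasoactive and metabolic genes and 5 of 13 for immediate early and stress factors, which are not particular to endothelium. None of 12 housekeeping genes and none of the listed leukocyte, epithelial, fibroblast, mural or mesothelial markers reached 5. Among pan-endothelial markers, Clec14a, Flt1 and Kdr had 10 regions each. Kit, a receptor tyrosine kinase of general capillary cells, had 11, Efnb2, the arterial ligand ephrin-B2, had 12, and S1pr1, the receptor for sphingosine 1-phosphate, had 12. The strongest distal region of S1pr1 had folds of 22.6, 19.8, 20.8, 22.1 and 21.2.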

How the data were processed

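ATAC-seq peak lists of sorted lung ECs from 5 Young Sham mice were used, 1 list per mouse, numbered as in the labels. According to the study's methods and the submitters' processing notes, the authors aligned reads to mm10 with BWA, kept read pairs with at least 1 uniquely mapped end, removed duplicates and called peaks with MACS2 in each sample separately. In the deposited lists the columns hold the fold enrichment at the summit, a ratio to the local background, which was used for strength, the −log10 of the p-value and of the q-value, of which the p-value served as an alternative order, and a score that was not used. The numbers of fragments at the summit and of local background were solved from the fold and the −log10 p of each peak under the caller's Poisson model. Read totals were not used here, and counts of fragments carry counting error only.

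Peaks of chromosomes 1 to 19, X and Y overlapping by at least 1 bp were merged and regions with a peak in all 5 lists were kept. Each was placed against 45756 RefSeq NM and NR transcripts of GRCm38.p6, as promoter (from 1000 bp before to 100 bp after a TSS), distal (over 2 kb from any TSS) or near, and assigned to the nearest gene. Copies were counted with BLAST 2.17.0+ (at least 95% identity over at least 90% of the 200-bp window). Only the assembled chromosomes were searched, so a region called single-copy may have copies that the assembly lacks. Scripts used Python 3.11.15, NumPy 2.4.6, SciPy 1.17.1 and Matplotlib 3.10.9 and were tested on simulated data. No test between groups was made. Genes named are the 15 strongest promoters, the 15 strongest distal regions, the 10 widest regions, the 10 genes with most regions, and the highest and lowest of each gene list. The cut at 10 genes broke a tie, since Prickle1, at rank 11, also had 14 regions. Other listed genes and the printed sequences were chosen after their values were seen. The members and gene lists were chosen with earlier results of these data known. Alternatives changed the overlap, the peak threshold, the number of peaks, the annotation, the promoter limits, the order and the letters searched, and left out each list in turn.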

Additional observations from a re-analysis of the deposited data

Results flagged for a closer look

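Of 86 measures checked over the 5 lists (12 measures of the lists and the folds of 74 named regions), 9 had 1 list set apart from the other 4 by more than 0.71 of the whole range. Chance sets apart about 1 in 20 such groups, or 4.3 of 86. In 7 of the 9 the list was Young Sham 1, which also has the lowest background.

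Young Sham 1 was the highest at the promoters of Gm14410 (fold of 43.0, the others 35.4 to 36.9) and Gm14326 (41.0, the others 32.3 to 34.7). At distal regions it was the highest nearest to Pak3 (54.9, the others 46.4 to 48.8), Limd1 (43.6, the others 40.4 to 41.1), 4933422A05Rik (43.7, the others 40.1 to 41.1) and Rab10os (46.7, the others 39.5 to 41.5). The strongest Bach2 region had 20.6 in Young Sham 1 and 14.9 to 16.4 in the others. Young Sham 5 was the lowest at the Txndc11 region (40.2, the others 42.1 to 42.6) and at the strongest Arhgef3 region (9.73, the others 13.5 to 14.1). Outside the chromosomes described, Young Sham 5 had 4 peaks on the mitochondrial genome, Young Sham 2 had 3 and the others 0, which are calls outside the regions described and not independent counts, so no difference between lists is read from them.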

How the results depend on the processing

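The number of regions open in all 5 lists stayed between 23623 and 28972 under the alternatives run. The promoter share of 42.3% became 45.5% with the same number of peaks taken from each list, 45.9% with predicted transcripts added and 46.2% with promoters of 2 kb on either side, and lay between 39.2% and 41.9% when each list was left out in turn. The distal share of 53.8% became 50.8% with the same number of peaks and 48.4% with predicted transcripts, and lay between 54.1% and 56.7% with each list left out. Ordering by −log10 p kept 19 of the 100 strongest promoters and 45 of the 100 strongest distal regions, whereas leaving out a list kept 91 to 94 and 92 to 96. Of the 50 genes with most regions, 25 were kept with predicted transcripts added and 14 when regions were counted inside the gene body, against 45 to 50 with each list left out. The share of distal windows with CAGGAAG, 25.8%, became 26.3% for folds of 5 or more, 26.6% with the same number of peaks, 38.8% over the whole region and 94.7% for GGAA, and lay between 25.4% and 25.9% with each list left out. Leaving out regions in 2 or more copies, an alternative chosen after seeing the data, kept 95 of the 100 strongest promoters and 87 of the 100 strongest distal regions. The causes were not tested. No paired analysis was possible because the results come from no test. Without read totals, a region open in fewer than 5 lists may lack only depth, and a region's absence from a list is not evidence of closed chromatin.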

Other observations

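On the X chromosome 3.84 regions per Mb were open in all 5 animals, against 9.62 over all chromosomes described. The Y chromosome held 15 such regions. Promoters of the Y-linked genes Eif2s3y, Uty and Ddx3y had a peak in all 5 lists and that of Kdm5d in 3, whereas the promoter of Xist had a peak in 0 lists, although the mice are given as of mixed sex. Of the regions open in all 5 animals, 7 matched the mitochondrial genome, and all 7 were distal.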
